A study of Homo sapiens with 7 samples.

Results

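The cells compared here were NKX2-5+ cells sorted on day 7 of differentiation and CD13+/ROR2+ cells sorted on day 3, in 1 RNA-seq library each out of 7 in the study. Day 7 NKX2-5+ cells, gated CD13+/ROR2+/NKX2-5+, are labelled as a cardiac progenitor, and day 3 CD13+/ROR2+ cells as a mesoderm progenitor. Both libraries came from H3 human embryonic stem cells in which eGFP reports NKX2-5 and mCherry reports alpha-MHC, the myosin heavy chain encoded by MYH6. The number in the name of the NKX2-5 reporter counts upward from library to library in the cell line label, and the libraries were taken as 1 line here. Both populations passed through the same directed cardiac differentiation, whose factors the labels used here leave unnamed, and both were sorted 2 times. CD13 is a surface peptidase encoded by ANPEP, and ROR2 a receptor for WNT ligands. The labels do not tell on which day the day 7 cells were gated for CD13 and ROR2. The libraries were chosen by their column names, and 21579 of the 23262 genes with values were compared, after small RNA and histone symbols had been left out. With 1 library per group of a single cell line, no difference has a replicate check and no test was possible.

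Heart muscle arises from mesoderm that leaves the primitive streak, moves forward in the embryo and comes under a set of heart transcription factors, among them NKX2-5, GATA4, TBX5, TBX20, HAND2 and MEF2C. NODAL, WNT, BMP and FGF signals form and pattern this mesoderm, and secreted antagonists limit them as the cells become heart progenitors. Early cardiomyocytes then assemble sarcomeres, in which thick filaments of myosin pull on thin filaments of actin, tropomyosin and troponin anchored at Z-discs. The calcium transient that triggers each contraction and the mitochondria that fuel it are built in the same period.

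Levels are given in scaled FPKM, the authors' FPKM (fragments per kilobase of transcript, corrected for library size) divided by 1 factor per library (0.687 for day 7 NKX2-5+ and 1.103 for day 3 CD13+/ROR2+), set over 7742 genes above 1 FPKM in all 7 libraries. Ratios are log2 of (scaled FPKM + 1) on day 7 over (scaled FPKM + 1) on day 3, which understates the difference of low genes, and folds are plain quotients. The labels state over 12 M single reads of 50 bases for each library. Low values placed the day 7 library at 0.603 times and the day 3 library at 2.63 times the depth of the undifferentiated (hESC) library, so low levels on day 7 rest on fewer reads. At least 1 FPKM was reached by 9637 genes in day 7 NKX2-5+ and by 10545 in day 3 CD13+/ROR2+, and 2668 genes were listed at 0 on day 7 only, against 373 on day 3 only. In bulk RNA, fewer cells of a type and less RNA per cell cannot be told apart.

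NKX2-5 and the 4 marker genes lay on the side of the labels, while the RNA of both gate proteins was lower in day 7 NKX2-5+, which is labelled CD13+/ROR2+ as well. Cardiac troponin T (TNNT2), the thin filament subunit that binds tropomyosin, was at 1360 scaled FPKM in day 7 NKX2-5+ and 3.15 in day 3 CD13+/ROR2+, and the heart transcription factor gene TBX5 at 67.9 on day 7 and 0.00812 on day 3. APLNR, whose product is a receptor for apelin and ELABELA on mesoderm cells, was at 3.55 scaled FPKM on day 7 and 291 on day 3, and CER1, a secreted antagonist of NODAL, BMP and WNT, at 2.27 on day 7 and 1575 on day 3. In the other libraries CER1 reached at most 11.2 scaled FPKM (day 3 CD13-/ROR2-), and TNNT2 stood at 0.262 in hESC, 0.983 in day 3 CD13-/ROR2-, 194 in day 7 NKX2-5-, 1075 in day 14 aMHC+ and 438 in day 14 aMHC-. NKX2-5, whose reporter was used to gate the day 7 cells, was at 102 scaled FPKM on day 7 and 0.324 on day 3, a difference the sort itself selects for. In the other libraries NKX2-5 stood at 0 in hESC and in day 3 CD13-/ROR2-, at 1.27 in day 7 NKX2-5-, 59.9 in day 14 aMHC+ and 70.1 in day 14 aMHC-. The low value of the NKX2-5- fraction lies on the side of its label. Of the gate genes, ANPEP was at 0.211 scaled FPKM in day 7 NKX2-5+ and 10.9 in day 3 CD13+/ROR2+ (log2 ratio -3.29, and -1.61 with a pseudocount of 5, which no longer meets a 4-fold rule). ROR2 was at 5.18 on day 7 and 18.6 on day 3 (-1.67, or -2.24 without scaling). These are RNA levels and not the surface protein that was gated on.

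A gene was counted as higher or lower on day 7 where its log2 ratio was at least 2 in size, a 4-fold difference on that scale, with at least 5 scaled FPKM in the higher library. Of 5820 genes at 5 scaled FPKM or more in either library, 393 were higher in day 7 NKX2-5+ (6.75%) and 238 lower (4.09%). These shares are over the 5820 genes, whereas counts and medians of gene lists below take in all members unless stated. A list with few members counted can lie near these shares, and its count alone is not a result about the list. List members under 5 scaled FPKM in both libraries could not be counted, and the pseudocount draws their ratios toward 0. The median ratio of the 5820 was -0.06, with quartiles of -0.64 and 0.65, and 4004 of them (68.8%) differed by less than 2-fold. Without scaling the day 7 column was lower as a whole, by 0.68 on the log2 scale, and the calls became 241 higher and 454 lower (34.7% higher, against 62.3% with scaling). Of the genes called, 13 of the higher were listed at 0 on day 3 and 41 of the lower at 0 on day 7. The higher genes together made up 16.8% of all scaled FPKM on day 7 and 0.746% on day 3, and the lower genes 0.558% on day 7 and 7.06% on day 3. The genes were chosen on these same values, so the direction of these differences is not a result. Genes just past the limit were SSH2 at 10.2 scaled FPKM on day 7 and 1.77 on day 3 (ratio 2.016) and FXYD5 at 1.3 on day 7 and 8.26 on day 3 (-2.006), while SOD2 at 21.4 on day 7 and 4.63 on day 3 (1.995) fell just short.

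**Figure D1:**
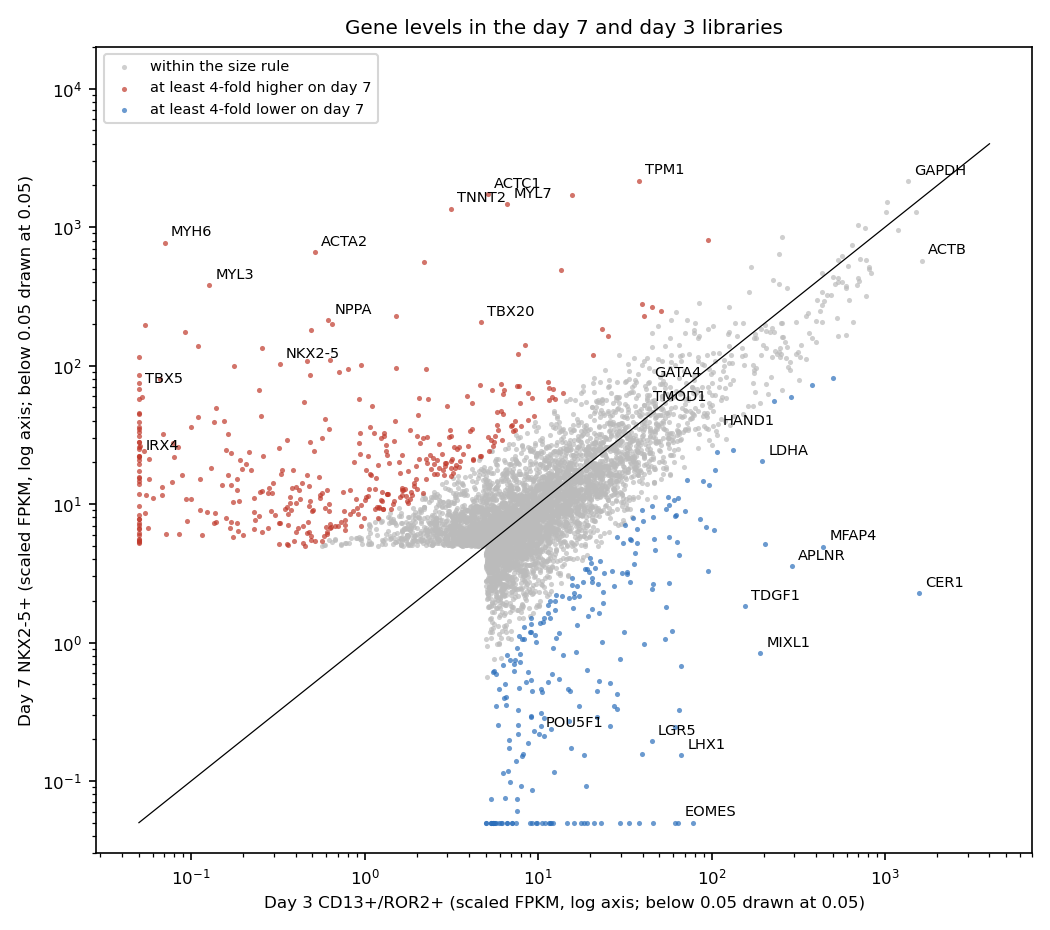
Scaled FPKM of each gene in day 7 NKX2-5+ (vertical, log axis) against day 3 CD13+/ROR2+ (horizontal, log axis), for the 5820 genes at 5 scaled FPKM or more in either library, with values below 0.05 drawn at 0.05. Red points are the 393 genes at least 4-fold higher on day 7, blue points the 238 lower ones, and the line marks equal levels; contractile genes fill the upper left, where day 7 levels reach 2168 for TPM1, and CER1, APLNR and MIXL1 the lower right.

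The contractile apparatus held many of the highest levels and of the largest ratios on day 7. The 49 genes of the thick filament, thin filament and Z-disc lists made up 8.42% of all scaled FPKM in day 7 NKX2-5+ and 0.252% in day 3 CD13+/ROR2+. Their share was 2.85% in day 7 NKX2-5-, 6.54% in day 14 aMHC+ and 3.05% in day 14 aMHC-. The day 7 cells labelled as a cardiac progenitor thus held a larger share than the day 14 aMHC+ library. Of the 14 thick filament genes, 8 were higher on day 7 and 0 lower, with a median ratio of 4.84 over all members. Over the 8 members at 5 scaled FPKM or more in either library the median was 6.59, against -0.06 over the 5820 genes. The alpha myosin heavy chain gene MYH6 was at 774 scaled FPKM on day 7 and 0.0702 on day 3, and its slower counterpart MYH7 at 21.1 on day 7 and 0.0573 on day 3, although reads of these near-identical genes could have been split either way. Light chains tune the myosin head. The atrial light chain genes MYL7 and MYL4 were at 1472 and 1701 scaled FPKM on day 7 and at 6.61 and 15.7 on day 3, which is 223-fold and 108-fold. These are the genes that give embryonic heart muscle most of its light chains. MYL3, the ventricular essential light chain gene, was at 382 on day 7 and 0.127 on day 3, whereas MYL2, the ventricular regulatory one, was at 0.6798 on day 7 and listed at 0 on day 3. Titin (TTN), the giant spring of the sarcomere, was at 227 on day 7 and 1.51 on day 3. Myosin binding protein C (MYBPC3), which brakes cross-bridge cycling, was at 74.6 on day 7 and 0.0196 on day 3, and the M-band protein gene MYOM1 at 42.5 on day 7 and 0.1102 on day 3.

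Of the 15 thin filament genes, 9 were higher on day 7 and 0 lower (median 2.97). TPM1, a tropomyosin that covers the myosin sites on actin, had the highest day 7 level of all 21579 genes compared, at 2168 scaled FPKM against 38.1 on day 3 (56.9-fold). Cardiac actin (ACTC1) was at 1731 on day 7 and 5.14 on day 3, and the calcium sensor of the filament, troponin C (TNNC1), at 564 on day 7 and 2.196 on day 3. Both inhibitory troponins of the heart were higher. The fetal form TNNI1 was at 174 scaled FPKM on day 7 and 0.0925 on day 3, and the adult form TNNI3 at 50.7 on day 7 and 1.103 on day 3. Nebulette (NEBL), which ties actin to the Z-disc, was at 95.1 on day 7 and 0.807 on day 3. Skeletal actin (ACTA1) was at 7.99 scaled FPKM on day 7 and 0.159 on day 3, and its reads may be shared with ACTC1 and ACTA2. The thin filament members that did not pass included the pointed-end cap TMOD1, at 49.8 on day 7 and already 42.3 on day 3, and TPM2 at 107 on day 7 and 66.8 on day 3. TPM4, a tropomyosin of non-muscle cells, was at 43.6 on day 7 and 135 on day 3 (-1.61), and slow skeletal troponin T (TNNT1) at 2.25 on day 7 and 9.17 on day 3 (-1.65).

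Among the 20 Z-disc and costamere genes, 16 were higher on day 7 and 0 lower (median 4.65), the largest share of any list. LDB3 and ACTN2, scaffold and actin crosslinker of the Z-disc, were at 139 and 49.4 scaled FPKM on day 7 against 0.1102 and 0.139 on day 3. The small heat shock protein genes HSPB7 and CRYAB, chaperones of the sarcomere, were at 198 and 80.4 on day 7 and at 0.0543 and 0.06603 on day 3. Of the stretch and signalling proteins of the Z-disc, MYOZ2 was at 44.5 scaled FPKM on day 7 and 0.008097 on day 3, ANKRD1 at 31.2 on day 7 and 0.0395 on day 3, and TCAP at 11.7 on day 7 and 0.0552 on day 3. XIRP1 and CSRP3 were at 45.8 and 19.5 on day 7 and listed at 0 on day 3. PDLIM5 had the highest day 3 level of the 16, at 8.37 scaled FPKM, and stood at 141 on day 7 (16.9-fold). The formin FHOD3, needed to build sarcomeric actin, was at 29.8 on day 7 and 1.25 on day 3. The remaining 4 members were short of the limit, with FLNC, the muscle filamin gene, at 47.3 on day 7 and 12.4 on day 3.

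The promoters of the 4 filament genes of highest day 7 level with a promoter in the table used are shown, because these genes were high together. The 250 bases before each start come from RefSeq on GRCh38.p14, a later build than the hg19 of the deposited values, and are written on the strand of the gene. Capitals mark motif matches, which are the CArG box bound by SRF, TATAAA, and AGATAA, the letters bound by GATA factors. In TNNT2 the AGATAA match is on the opposite strand, where the letters read TTATCT.
TPM1, chr15:63048239-63048488, plus strand: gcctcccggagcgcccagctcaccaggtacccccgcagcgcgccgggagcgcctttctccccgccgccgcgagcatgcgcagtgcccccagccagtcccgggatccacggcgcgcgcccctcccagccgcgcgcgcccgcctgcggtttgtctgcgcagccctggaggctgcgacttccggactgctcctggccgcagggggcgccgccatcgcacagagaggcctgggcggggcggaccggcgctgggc
ACTC1, chr15:34795550-34795799, minus strand: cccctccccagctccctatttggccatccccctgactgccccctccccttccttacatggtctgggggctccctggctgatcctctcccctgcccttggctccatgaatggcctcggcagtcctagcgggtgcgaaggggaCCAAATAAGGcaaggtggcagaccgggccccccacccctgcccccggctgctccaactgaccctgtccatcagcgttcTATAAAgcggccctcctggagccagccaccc
MYL7, chr7:44141333-44141582, minus strand: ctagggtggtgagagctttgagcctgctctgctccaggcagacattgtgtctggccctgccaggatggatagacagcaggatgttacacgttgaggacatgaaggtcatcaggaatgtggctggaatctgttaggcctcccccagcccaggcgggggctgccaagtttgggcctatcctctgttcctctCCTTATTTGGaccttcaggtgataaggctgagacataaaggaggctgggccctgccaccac
TNNT2, chr1:201377681-201377930, minus strand: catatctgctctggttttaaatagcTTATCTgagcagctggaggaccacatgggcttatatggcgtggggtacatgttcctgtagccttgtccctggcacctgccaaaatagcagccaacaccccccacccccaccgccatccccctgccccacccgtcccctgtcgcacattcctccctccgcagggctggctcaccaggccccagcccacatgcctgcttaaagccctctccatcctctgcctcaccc
The CArG box begins 109 bases before the start in ACTC1 and 61 before it in MYL7. ACTC1 also has TATAAA 31 bases before the start, and TNNT2 has its AGATAA match 225 bases before it. The TPM1 window shown holds none of the motifs searched. Only the start listed first for each gene was searched, so other starts of TPM1, including those used in muscle, were not read. A promoter was found for 25 of the 33 filament and Z-disc genes higher on day 7. Of these 25, 5 held a CArG box, 7 a MEF2 motif, 7 AGATAA, 4 TATAAA and 0 the T-box letters AGGTGTGA. Of all 27305 promoters of the same length, 1.14% held a CArG box, 2.9% a MEF2 motif, 9.37% AGATAA, 11.1% TATAAA and 0.787% AGGTGTGA. Of the 4375 promoters found for the 5820 genes compared, from which the counted genes come, 1.1% held a CArG box, 1.37% a MEF2 motif, 4.32% AGATAA, 5.3% TATAAA and 0.526% AGGTGTGA. Both strands were searched, and TATAAA can lie inside a CArG box or a MEF2 motif. A match is a run of letters and not a binding site, and no match says only that these letters are not in the window.

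Of 30 heart transcription factor genes, 23 had a ratio above 0, 10 were counted as higher on day 7 and 2 as lower, and the median ratio was 1.36. SMYD1, a muscle histone methyltransferase and cofactor, was at 116 scaled FPKM on day 7 and 0.006098 on day 3 (6.86). TBX20, which represses non-cardiac programmes in the chambers, was at 206 on day 7 and 4.69 on day 3 (43.9-fold). IRX4, a ventricular homeobox gene, was at 22.1 on day 7 and listed at 0 on day 3, and TBX2, a T-box gene of the atrioventricular canal, at 9.67 on day 7 and 0.0163 on day 3. HAND2 and MEF2C, both required for the right ventricle in mice, were at 23.8 and 14 scaled FPKM on day 7 and 0.217 and 0.0382 on day 3. Myocardin (MYOCD), the coactivator of SRF, was at 72.7 on day 7 and 4.63 on day 3 (15.7-fold), MEF2A at 30.8 on day 7 and 3.16 on day 3, and SRF itself at 16.02 on day 7 and 6.504 on day 3 (1.18). Several heart regulators were already high in the day 3 mesoderm. GATA4 was at 74.6 on day 7 and 43.03 on day 3 (0.78). HAND1 was at 33.7 scaled FPKM on day 7 and 107 on day 3 (-1.63), and GATA6, counted as lower, at 14.9 on day 7 and 72.04 on day 3 (-2.20). FOXF1, a factor of the lateral and visceral mesoderm, was at 0 in day 7 NKX2-5+ and 5.57 in day 3 CD13+/ROR2+. ISL1, which marks second heart field progenitors, was low in both, at 2.46 scaled FPKM on day 7 and 0.188 on day 3. GATA5, HEY1 and NR2F1 had ratios of 2.26, 2.36 and 2.22 but stayed below 5 scaled FPKM on day 7.

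Primitive streak and early mesoderm regulators were lower in the day 7 cells, with 13 of 21 genes lower, 0 higher and a median ratio of -2.79. MIXL1, a homeobox gene of the streak, was at 0.834 scaled FPKM on day 7 and 190.1 on day 3. EOMES, the T-box gene that opens the mesoderm and endoderm programmes, was listed at 0 on day 7 and at 64.4 on day 3, and its relative T (brachyury) at 0 on day 7 and 6.64 on day 3. LHX1, an organizer gene, was at 0.153 on day 7 and 66.8 on day 3, and GSC, another one, at 0 on day 7 and 18.3 on day 3. MESP1, the bHLH gene at the head of the cardiac mesoderm programme, was listed at 0 on day 7 and at 9.69 on day 3, and MESP2 was at 0.547 on day 7 and 13.2 on day 3. HAS2, whose enzyme makes hyaluronan, was at 6.45 on day 7 and 103 on day 3 (16-fold lower on day 7). SNAI1 and SNAI2, repressors of epithelial genes, were at 0.189 and 3.87 scaled FPKM on day 7 and at 8.72 and 22.7 on day 3. The 1 member with a ratio above 0 was LIX1, at 24.8 on day 7 and 6.44 on day 3 (1.80), short of the limit. EVX1, of the posterior streak, was at 0 on day 7 and 0.312 on day 3, and MSGN1, of the paraxial mesoderm, was listed at 0 in both.

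Pluripotency genes that day 3 mesoderm still carried were lower on day 7, with 10 of 17 lower, 0 higher and a median of -2.44. TDGF1, the NODAL coreceptor, was at 1.82 scaled FPKM on day 7, 155 on day 3 and 136 in hESC. L1TD1 was at 0.246 on day 7 and 61.2 on day 3, and POU5F1, the core pluripotency factor gene, at 0.2202 on day 7 and 10.1 on day 3. The let-7 antagonists LIN28A and LIN28B were at 8.11 and 2.32 scaled FPKM on day 7 and at 45.7 and 23.6 on day 3, and the de novo DNA methyltransferase gene DNMT3B at 3.24 on day 7 and 32.6 on day 3. NANOG did not enter the counts, at 0.0979 on day 7 and 0.598 on day 3, beside 34.2 in hESC.

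The genes of the NODAL and WNT lists that passed the limit were all lower on day 7. Of 14 NODAL pathway genes, 5 were lower on day 7 and 0 higher (median -0.95). The ligand NODAL was at 0.811 scaled FPKM on day 7 and 6.64 on day 3, its feedback antagonists LEFTY2 at 0.447 on day 7 and 15.3 on day 3 and LEFTY1 at 0 on day 7 and 8.99 on day 3, a pair whose reads can be confused. Of the receptors and transducers, the coreceptor gene TDGF1 was the 1 that passed the limit, and SMAD2 was at 6.18 on day 7 and 4.49 on day 3 and the receptor gene ACVR1B at 10.01 on day 7 and 7.33 on day 3. The receptor gene ACVR2B was at 6.41 on day 7 and 15.2 on day 3 (-1.13) and FOXH1, the partner of SMAD2, at 2.65 on day 7 and 9.76 on day 3 (-1.56). Of 36 WNT genes, 7 were lower and 0 higher (median -0.39, but -1.48 over the 19 at 5 scaled FPKM or more in either library). The lower genes were DKK1, DKK4, SFRP2, LGR5, FZD5, FZD7 and SP5. The secreted antagonists DKK1 and DKK4 were at 3.17 and 0 scaled FPKM on day 7 and at 30.6 and 11.8 on day 3. SFRP2, another antagonist, was at 0.247 on day 7 and 25.9 on day 3, whereas its relative SFRP1 was at 33.1 on day 7 and 34.4 on day 3. The R-spondin receptor gene LGR5 was at 0.194 on day 7 and 45.1 on day 3, the frizzled receptor gene FZD7 at 7.04 on day 7 and 31.7 on day 3, and the noncanonical ligand WNT5A at 3.19 on day 7 and 13.3 on day 3 (-1.78). AXIN2, a feedback target read as a gauge of canonical WNT activity, was at 1.93 on day 7 and 3.43 on day 3 (-0.60).

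Of 20 BMP genes, 12 reached 5 scaled FPKM in either library. Of the 20, 2 were higher and 2 lower, beside 6.75% and 4.09% of the 5820 genes. The median of the 20 was 0.04, against -0.03 without scaling and 0.77 with genes at 0 left out. BMP5 was at 57.2 scaled FPKM on day 7 and 2.304 on day 3 (24.8-fold) and BMP7 at 12.8 on day 7 and 1.05 on day 3 (12.2-fold). BMP4 was at 8.86 on day 7 and 69.9 on day 3 (7.89-fold lower on day 7), and the target gene MSX1 was listed at 0 on day 7 and at 5.51 on day 3. BMP2 was at 24.9 on day 7 and 27.97 on day 3. BMP10, a ligand of trabecular myocardium, was at 1.45 on day 7 and 0.0186 on day 3. Of 21 FGF genes, 2 were lower on day 7 and 0 higher (median -0.50). The ligand FGF17 was listed at 0 on day 7 and at 33.6 on day 3, and SPRY4, a feedback inhibitor of ERK signalling, was at 5.74 on day 7 and 57 on day 3 (9.92-fold lower on day 7). Receptor genes moved apart within the limit, FGFR2 at 20.6 on day 7 and 9.01 on day 3 (1.11) and FGFR1 at 4.74 on day 7 and 12.6 on day 3 (-1.25).

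In the Notch list 1 of 16 genes was higher and 1 lower (median 0.10, and -0.02 without scaling). Of the 16, 5 reached 5 scaled FPKM in either library, and over all 5820 genes at that level 6.75% were higher and 4.09% lower. The ligand JAG1 was at 9.45 scaled FPKM on day 7 and 1.19 on day 3 (7.97-fold), and DLL3, an inhibitory ligand, at 0.272 on day 7 and 15.1 on day 3. Of 16 retinoic acid genes, 3 were lower on day 7 and 0 higher. The median was -0.02 over all 16, but -3.15 over the 4 at 5 scaled FPKM or more in either library. CYP26A1, whose enzyme breaks retinoic acid down, was listed at 0 on day 7 and at 78.3 on day 3, and the binding proteins CRABP1 and CRABP2 were at 0.445 and 6.63 on day 7 and at 21.9 and 37.2 on day 3. The synthesis gene ALDH1A2 was below 0.1 scaled FPKM in both. Among 15 guidance and migration genes, 2 were higher and 3 lower (median 0.06, and -0.44 without scaling). SLIT2, a guidance ligand, was at 28.2 scaled FPKM on day 7 and 0.485 on day 3, and the sphingosine phosphate receptor gene S1PR1 at 16.5 on day 7 and 0.329 on day 3. Besides APLNR, the CXCL12 receptors CXCR4 and ACKR3 (listed as CXCR7) were lower, at 0 and 0.697 on day 7 and at 9.26 and 7.28 on day 3, while their ligand CXCL12 was at 9.27 on day 7 and 2.09 on day 3 (1.73). KDR and PDGFRA, surface receptors used to gate cardiac mesoderm, differed by less than 2-fold, KDR at 8.28 on day 7 and 7.29 on day 3 and PDGFRA at 11.5 on day 7 and 12.1 on day 3.

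Genes of excitation and calcium handling that passed the limit were all higher on day 7. Of 17 calcium genes, 7 were higher and 0 lower (median 1.79). The sodium-calcium exchanger gene SLC8A1 was at 108 scaled FPKM on day 7 and 0.467 on day 3, and phospholamban (PLN), the brake on the calcium pump, at 85.5 on day 7 and 0.485 on day 3. The pump gene ATP2A2 was already expressed, at 165 on day 7 and 25.1 on day 3 (6.55-fold). The release channel gene RYR2 was at 41.2 scaled FPKM on day 7 and 0.589 on day 3, and JPH2, which holds the release channels against the surface membrane, at 15.6 on day 7 and 0.0291 on day 3. Calsequestrin 2 (CASQ2), the calcium store of the adult heart, was at 3.08 on day 7 and 0.655 on day 3 and did not reach 5. Of 22 ion channel genes, 4 were higher and 0 lower (median 1.33, and 0.99 without scaling). HCN4, the pacemaker channel gene, was at 57.3 on day 7 and 0.9302 on day 3 (ratio 4.92), the repolarising channel gene KCNH2 at 44.01 on day 7 and 2.03 on day 3 (21.7-fold), and KCNIP2, a subunit of the transient outward channel, at 30.2 on day 7 and 0.567 on day 3. The L-type calcium channel gene CACNA1C was at 4.96 on day 7 and 0.107 on day 3 (2.43) and KCNJ2, which sets the resting potential of working muscle, at 0.0304 on day 7 and 0.158 on day 3.

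Junction genes differed in both directions (2 of 12 higher, 1 lower, median 0.84). The desmosomal gene PKP2 was at 58.6 scaled FPKM on day 7 and 2.05 on day 3 (28.6-fold) and CTNNA3, an alpha-catenin of the intercalated disc, at 13.3 on day 7 and 0.401 on day 3. GJA1, the connexin gene of working myocardium, was lower, at 4.27 on day 7 and 64.8 on day 3 (15.2-fold lower on day 7). Of 11 genes of natriuretic peptides and secreted factors, 3 were higher and 0 lower (median 0.80). NPPA was at 213 scaled FPKM on day 7 and 0.619 on day 3, NPPB at 182 on day 7 and 0.488 on day 3, and CORIN, the protease that activates the atrial peptide, at 24.3 on day 7 and 0.0536 on day 3. The receptor gene NPR1 was at 0.0718 on day 7 and 0.214 on day 3. Of the 18 genes used to tell atrial, ventricular and pacemaker cells apart, 7 were higher and 0 lower (median 1.96). They were MYL7, NPPA and TBX5 of the atrial genes, MYL3, MYH7 and IRX4 of the ventricular ones and HCN4 of the pacemaker. NR2F2, an atrial regulator, was at 1.22 on day 7 and 0.0207 on day 3, and SHOX2, of the sinus node, at 0.135 on day 7 and 0.488 on day 3.

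**Figure D2:**
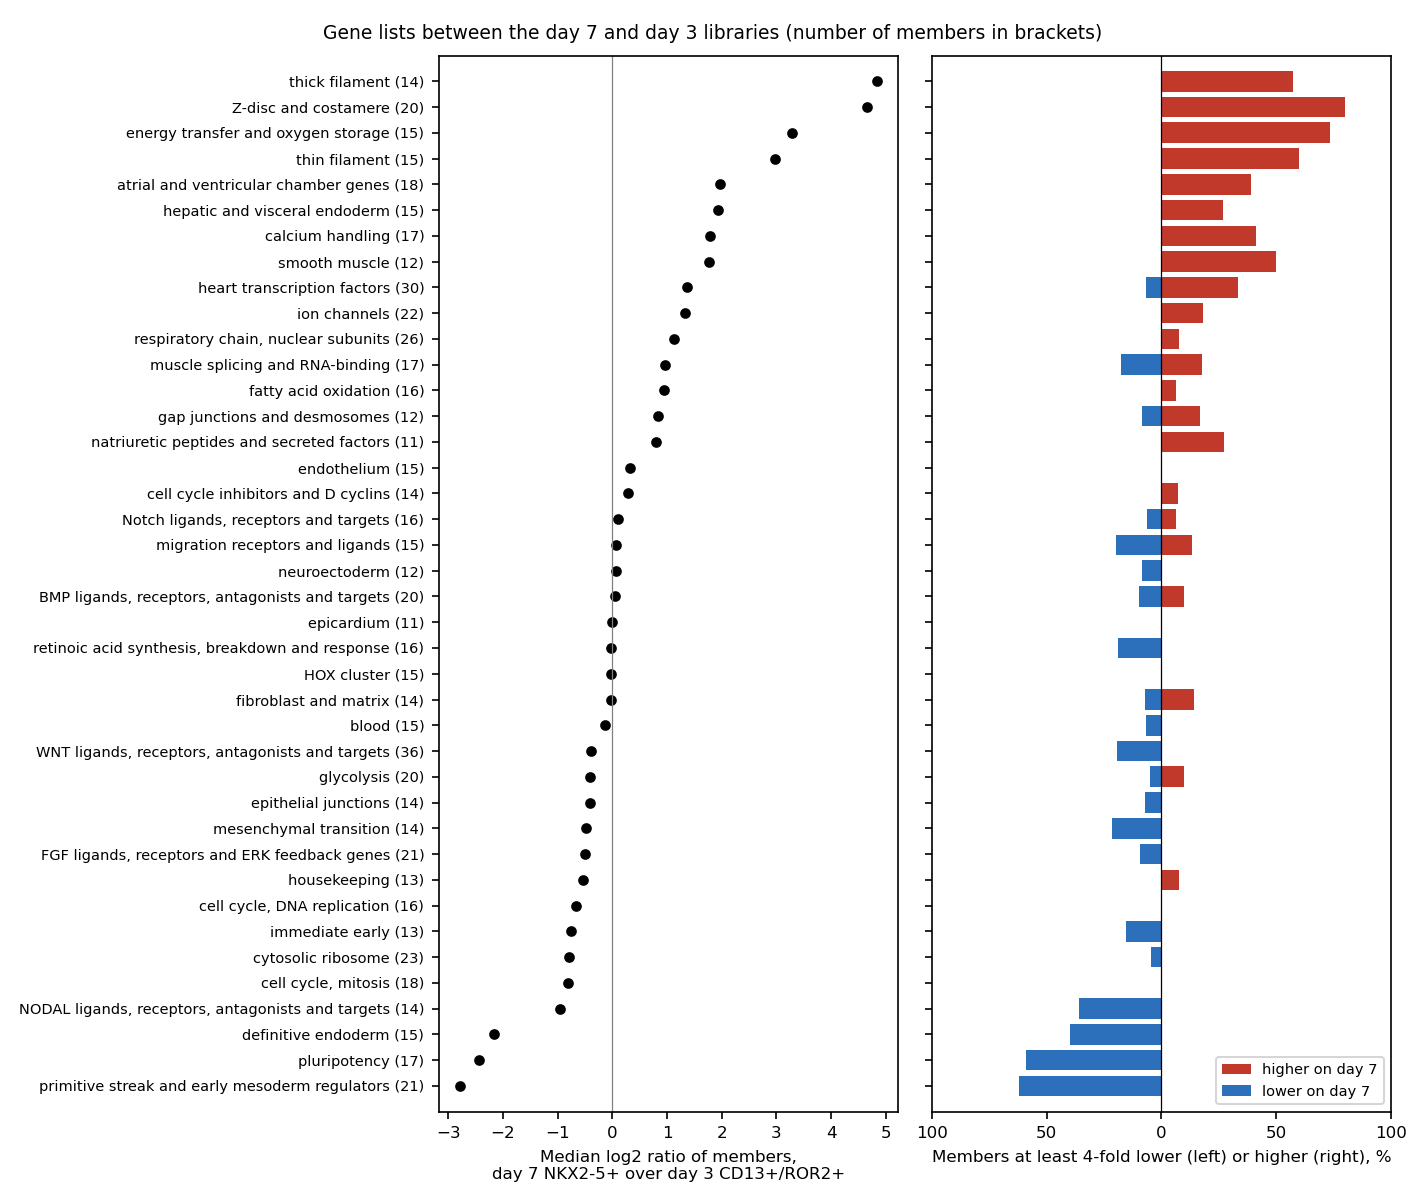
Median log2 ratio of all members of each gene list, day 7 NKX2-5+ over day 3 CD13+/ROR2+ (left, number of members in brackets), and the percentage of members at least 4-fold lower or higher on day 7 (right, blue and red). Medians run from 4.84 for the thick filament list to -2.79 for the primitive streak list. Of the 5820 genes at 5 scaled FPKM or more in either library, 6.75% were higher and 4.09% lower, whereas the percentages drawn are of all members.

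Genes of muscle energy supply were higher on day 7, with 11 of 15 higher, 0 lower and a median of 3.29. The 11 include TECRL, whose product is not known for energy transfer or oxygen storage. Muscle creatine kinase (CKM), which rebuilds ATP at the myofibril, was at 110.2 scaled FPKM on day 7 and 0.633 on day 3, and its mitochondrial partner CKMT2 at 8.78 on day 7 and 0.124 on day 3. Myoglobin (MB) and the muscle cytochrome oxidase subunit COX6A2 were at 36.1 and 39.4 on day 7 and listed at 0 on day 3. FABP3, which carries fatty acids in heart cells, was at 43.2 on day 7 and 0.252 on day 3, and PPARGC1A, the coactivator of mitochondrial genes, at 13.7 on day 7 and 0.1503 on day 3. Of 26 nuclear genes of the respiratory chain, 2 were counted as higher on day 7 and 0 as lower, beside 6.75% and 4.09% of the 5820 genes. A ratio above 0 was found for 25 of the 26, or 22 without scaling, and the median was 1.12 (0.46 without scaling). SDHC, a subunit of complex II, was on the other side of 0, at 5.51 on day 7 and 8.95 on day 3 (-0.61). COX7B was at 266 on day 7 and 45.6 on day 3 (5.82-fold), SDHA at 28.98 on day 7 and 5.35 on day 3 (5.41-fold), and ATP5B, the catalytic subunit of ATP synthase, at 635 on day 7 and 246 on day 3 (2.58-fold). Of 16 fatty acid oxidation genes, 15 had a ratio above 0, or 11 without scaling, and only CPT1B, the muscle carnitine transferase gene, was counted as higher, at 10.04 on day 7 and 0.626 on day 3 (list median 0.94, and 0.44 without scaling).

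Of 20 glycolytic genes, 2 were higher and 1 lower (median -0.41, and -1.01 without scaling). The muscle forms PGAM2 and ENO3 were at 25.2 and 60.5 scaled FPKM on day 7 and at 0.323 and 3.91 on day 3. Their widespread counterparts PGAM1 and ENO1 were at 27.4 and 44.7 on day 7 and at 55.8 and 151 on day 3 and did not pass (the ratio of ENO1 was -1.74). Among the others short of the limit, the phosphofructokinase genes PFKP and PFKM, of which PFKM is the muscle form, were at 55.5 and 16.99 on day 7 and at 14.5 and 5.12 on day 3 (ratios 1.86 and 1.56). Lactate dehydrogenase A (LDHA), which turns pyruvate into lactate, was at 20.4 on day 7 and 195 on day 3 (9.56-fold lower on day 7), while LDHB was at 202 on day 7 and 254 on day 3. The glucose transporter genes SLC2A1 and SLC2A3 were at 8.05 and 28.96 on day 7 and at 18.9 and 96.1 on day 3, within the limit. LDHA was at 31.6 in day 7 NKX2-5-, 149.7 in day 14 aMHC+ and 191 in day 14 aMHC-. Both day 7 libraries were low.

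**Figure D3:**
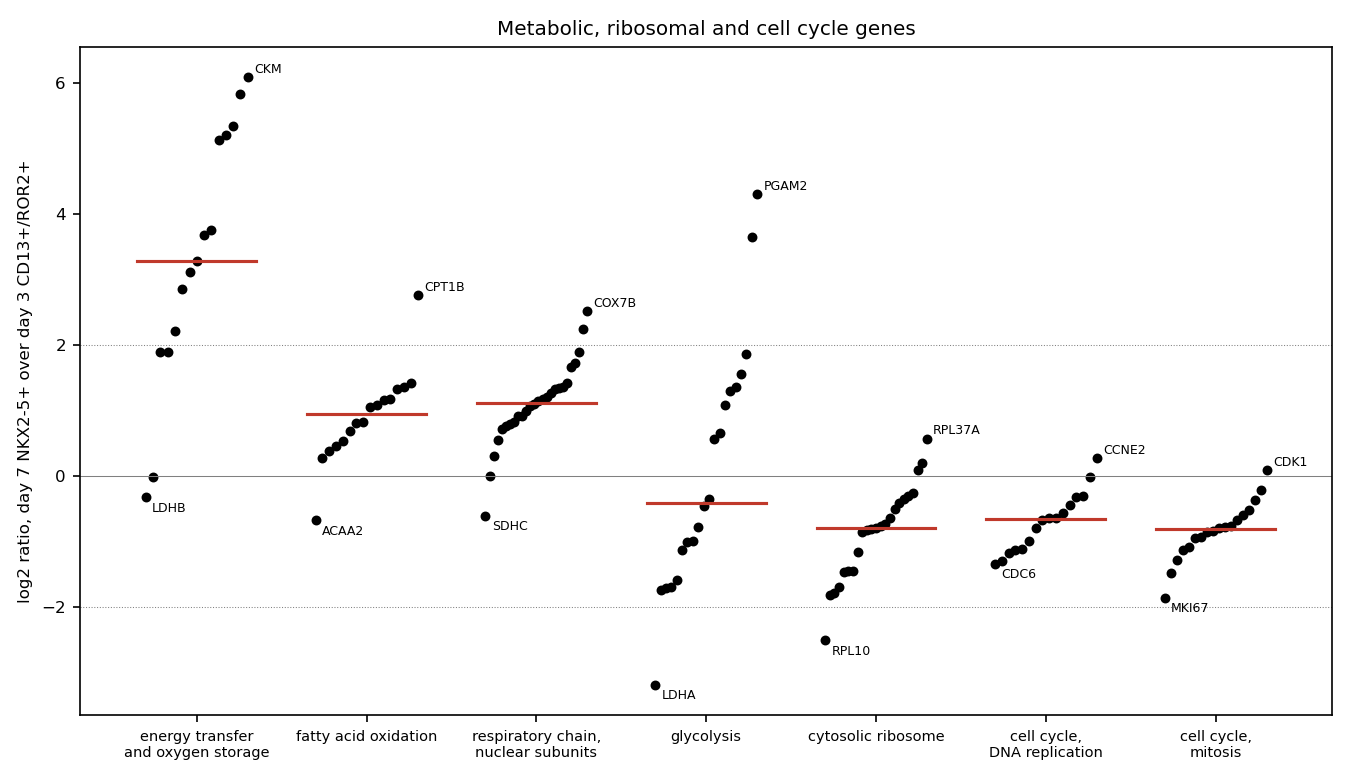
Log2 ratio of each member of 7 lists, day 7 NKX2-5+ over day 3 CD13+/ROR2+, ordered from low to high within each list. Points are genes, red bars list medians, dotted lines the ratios of 2 and -2; respiratory chain genes lie mostly above 0 (median 1.12, but 0.46 without scaling) and ribosomal, DNA replication and mitotic genes mostly below it (medians -0.79, -0.66 and -0.82, and -1.47, -1.20 and -1.44 without scaling).

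Cell cycle and ribosomal genes mostly had ratios below 0, by less than the limit. Of 16 genes of DNA replication, 0 were counted in either direction and 1 had a ratio above 0 (median -0.66, and -1.20 without scaling). The helicase gene MCM5 was at 4.71 scaled FPKM on day 7 and 10.4 on day 3, and RRM2, which makes deoxynucleotides, at 11.9 on day 7 and 30.6 on day 3. Of 18 mitotic genes, 0 were counted (median -0.82, and -1.44 without scaling), with MKI67 at 6.32 on day 7 and 25.6 on day 3 (-1.86) and CDK1 at 4.13 on day 7 and 3.83 on day 3. The summed level of the mitotic genes was 192 scaled FPKM in day 7 NKX2-5+ and 363 in day 3 CD13+/ROR2+, against 36.0 in day 14 aMHC+. In the list of cell cycle inhibitors and D cyclins, 1 of 14 genes was higher and 0 lower (median 0.29, and -0.17 without scaling). It was CDKN1A, the p21 gene, at 16.6 on day 7 and 2.53 on day 3 (6.56-fold). Of 23 cytosolic ribosomal protein genes, 20 had a ratio below 0 and RPL10 was counted as lower, at 17.6 on day 7 and 105 on day 3 (list median -0.79, and -1.47 without scaling). Of 13 housekeeping genes, SDHA was the 1 counted as higher, 0 were lower, and the median was -0.54 (-1.10 without scaling). Several of the others differed by as much as the cell cycle genes, with GAPDH at 2140 on day 7 and 1359 on day 3 (0.65, and -0.03 without scaling) and beta-actin (ACTB) at 573 on day 7 and 1623 on day 3 (-1.50). Of 13 immediate early genes (median -0.76), which respond to handling among other stimuli, FOS and IER3 were the 2 counted as lower, at 0.821 and 5.56 on day 7 and 7.87 and 46.5 on day 3.

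Of 17 muscle splicing and RNA-binding genes, 3 were higher and 3 lower (median 0.97). RBM24, RBM20 and RBM38 were at 51.1, 10.8 and 30.3 scaled FPKM on day 7 and at 2.97, 0.422 and 3.06 on day 3, and RBM20 controls the splicing of titin. ESRP1, the epithelial splicing regulator gene, was lower at 0.398 on day 7 and 6.37 on day 3, and the splicing repressor gene PTBP1 was at 16.2 on day 7 and 57.7 on day 3 (-1.77). LIN28A and LIN28B, given above, were the other lower genes of this list. Of 14 epithelial junction genes, ESRP1 was the 1 counted, as lower (median -0.41). N-cadherin (CDH2), the cadherin of cardiomyocytes, was at 96.7 on day 7 and 57.9 on day 3 (0.73). Epithelial cadherin (CDH1) was already low on day 3, at 0.36 on day 7 and 2.86 on day 3, beside 21.7 in hESC. In the mesenchymal list 3 of 14 genes were lower and 0 higher (median -0.49), SNAI1, SNAI2 and the fibronectin receptor gene ITGA5 (5.74 on day 7 and 28.4 on day 3), while vimentin (VIM) was at 135 on day 7 and 247 on day 3 (-0.87). Of 15 anterior HOX genes, 0 reached 5 scaled FPKM in either library.

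Markers of other cell types were read for both libraries. Of 15 liver and visceral endoderm genes, 15 had a ratio above 0 and 4 were counted as higher (AFP, RBP4, AHSG and APOC3). The list summed to 247 scaled FPKM in day 7 NKX2-5+ and 84.6 in day 3 CD13+/ROR2+. Of these sums APOE gave 119.7 on day 7 and 58.2 on day 3, and APOE was at 116 in hESC. Alpha-fetoprotein (AFP) was at 21.7 on day 7 and 0.0232 on day 3, apolipoprotein A2 (APOA2) at 56.3 on day 7 and 24.5 on day 3, and albumin (ALB) at 0.355 on day 7 and 0 on day 3. The day 7 NKX2-5- library held more, at a sum of 620 and 118 for AFP. The list holds genes known from hepatocytes and yolk sac, although hESC also held APOE and the day 3 library APOA2. The part of such cells in the day 7 values was not tested. Definitive endoderm genes lay the other way, with 6 of 15 lower on day 7 and 0 higher, SOX17 at 0 on day 7 and 16.1 on day 3 and OTX2 at 2.73 on day 7 and 33.9 on day 3. GATA6, HHEX and CXCR4, which early mesoderm also uses, were among the 6.

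Of 12 smooth muscle genes, 6 were higher and 0 lower (median 1.76), with a sum of 3030 on day 7 and 123 on day 3. Of that sum TPM1, also the leading thin filament gene, gave 2168 on day 7 and 38.1 on day 3. Smooth muscle actin (ACTA2) was at 663 on day 7 and 0.514 on day 3, and calponin (CNN1) at 26.9 on day 7 and 2.68 on day 3. Transgelin (TAGLN) was at 30.7 on day 7 and 2.298 on day 3. In day 7 NKX2-5- ACTA2, CNN1 and TAGLN stood at 454, 27.96 and 155. Early cardiomyocytes can express these genes too, and the source of the transcripts was not tested. The smooth muscle myosin gene MYH11 stood at 0.988 on day 7 and 0.0515 on day 3. Of 14 fibroblast and matrix genes, COL1A1 (34.99 on day 7 and 4.17 on day 3) and COL3A1 (20.96 on day 7 and 0.192 on day 3) were higher and FBLN1 lower (14.7 on day 7 and 89.5 on day 3), and the sums were 124 on day 7 and 163 on day 3. Of 15 endothelial genes, only 1 reached 5 scaled FPKM in either library, and 0 were counted in either direction. Ratios were above 0 for 12 of the 15, or 11 without scaling. The list summed to 21.0 on day 7 and 13.9 on day 3, with VE-cadherin (CDH5) at 1.47 on day 7 and 0.00814 on day 3. Of 11 epicardial genes, only 1 reached 5 scaled FPKM in either library and 0 were counted, with sums of 19.6 on day 7 and 58.8 on day 3. Most of both sums was KRT19, a keratin gene of many epithelia, at 16.6 on day 7 and 57.8 on day 3. The more specific members were low, with TBX18 at 1.098 on day 7 and 0.05597 on day 3, BNC1 at 0.703 on day 7 and 0.0708 on day 3, TCF21 at 0.549 on day 7 and 0.106 on day 3 and WT1 at 0.168 on day 7 and 0.152 on day 3. Of 15 blood genes, HBA1, HBA2, HBZ and HBG1 were listed at 0 in both libraries and GATA1 was at 0 on day 7 and 0.0907 on day 3. The 1 counted was the glycophorin gene GYPB, at 0.675 on day 7 and 66.8 on day 3, whose reads GYPE may share, and the list summed to 10.7 on day 7 and 78.1 on day 3. The 12 neuroectoderm genes summed to 40.8 on day 7 and 26.2 on day 3. Most of the day 7 sum was nestin (NES), at 33.97 on day 7 and 9.78 on day 3, and at 46.1 in day 14 aMHC+. TUBB3 was the 1 counted, as lower, at 0.816 on day 7 and 13.9 on day 3, and PAX6 was at 0.184 on day 7 and 0.0852 on day 3. The part of any of these cell types in the other values was not tested.

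Outside all lists, several of the genes with the highest ratios encode muscle and matrix proteins. COL2A1, the cartilage collagen that also lines embryonic heart cushions, was at 201 scaled FPKM on day 7 and 0.645 on day 3. CRIP2, a LIM protein of the heart and vessels, was at 133 on day 7 and 0.257 on day 3, and POPDC2, a cyclic AMP binding protein of heart muscle, at 99.9 on day 7 and 0.177 on day 3. FITM1, which packs lipid droplets in muscle, was at 59.8 on day 7 and 0.05202 on day 3. TRIM55, a ligase that binds titin, was at 34.9 on day 7 and 0.00985 on day 3, and HSPB2 at 33.01 on day 7 and listed at 0 on day 3. The basement membrane gene NID2 was at 90.2 on day 7 and 0.716 on day 3, and MYL9, the regulatory light chain gene of smooth and non-muscle myosin, at 492 on day 7 and 13.6 on day 3 (36.2-fold).

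Secreted and surface proteins were among the genes of lowest ratio outside the lists. MFAP4, a microfibril protein gene, was at 4.93 scaled FPKM on day 7 and 441 on day 3 (89.3-fold lower on day 7), and SERPINE2, a protease inhibitor gene, at 5.17 on day 7 and 204 on day 3 (39.4-fold lower). Of the neuropeptide genes, GRP was at 0 in day 7 NKX2-5+ and 61.8 in day 3 CD13+/ROR2+, GAL was at 0 on day 7 and 37.9 on day 3, and neurotensin (NTS) was at 1.06 on day 7 and 53.8 on day 3. SLCO2A1, a prostaglandin transporter gene, was at 1.21 on day 7 and 59.2 on day 3, IFITM1 at 3.26 on day 7 and 95.8 on day 3, and the protease inhibitor gene SLPI at 0 on day 7 and 29.5 on day 3. Abundant genes of general function also passed. Gamma-actin (ACTG1) was at 81.02 on day 7 and 498 on day 3 (6.15-fold lower), nucleophosmin (NPM1) at 72.7 on day 7 and 377 on day 3 (5.19-fold lower) and S100A11 at 59.3 on day 7 and 288 on day 3 (4.85-fold lower). The nuclear RNA MALAT1 was at 801 on day 7 and 95.3 on day 3 (8.41-fold).

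The other 5 libraries place these levels in the course of differentiation. The median of the 393 higher genes was 0.906 scaled FPKM in hESC, 0.677 in day 3 CD13+/ROR2+, 0.998 in day 3 CD13-/ROR2-, 18.0 in day 7 NKX2-5+, 6.52 in day 7 NKX2-5-, 10.5 in day 14 aMHC+ and 7.61 in day 14 aMHC-. The 238 lower genes had medians of 3.31 in hESC, 15.8 in day 3 CD13+/ROR2+, 6.27 in day 3 CD13-/ROR2-, 0.755 in day 7 NKX2-5+, 2.18 in day 7 NKX2-5-, 1.1 in day 14 aMHC+ and 1.45 in day 14 aMHC-. Both gene sets were chosen on the day 3 and day 7 NKX2-5+ values, so their extremes in those libraries are not a result. Single genes stood differently in the day 14 aMHC+ library, which is another sort of the same line. NPPB was at 0.488 on day 3, 182 in day 7 NKX2-5+ and 1341 in day 14 aMHC+, and ACTA1 at 0.159 on day 3, 7.99 in day 7 NKX2-5+ and 541 in day 14 aMHC+. TBX20 was at 4.69 on day 3, 206 in day 7 NKX2-5+ and 10.5 in day 14 aMHC+, TBX5 at 0.00812 on day 3, 67.9 in day 7 NKX2-5+ and 8.79 in day 14 aMHC+, and IRX4 at 0 on day 3, 22.1 in day 7 NKX2-5+ and 0.453 in day 14 aMHC+. MYH6 was at 0.0702 on day 3, 774 in day 7 NKX2-5+ and 325 in day 14 aMHC+, while MYH7 was at 0.0573 on day 3, 21.1 in day 7 NKX2-5+ and 47.96 in day 14 aMHC+. In the day 7 NKX2-5- library, set against the same day 3 library, the sarcomere genes made up 2.85% of all scaled FPKM, with TPM1 at 2120 and ACTC1 at 501 but MYL3 at 6.18 and CKM at 1.35.

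**Figure D4:**
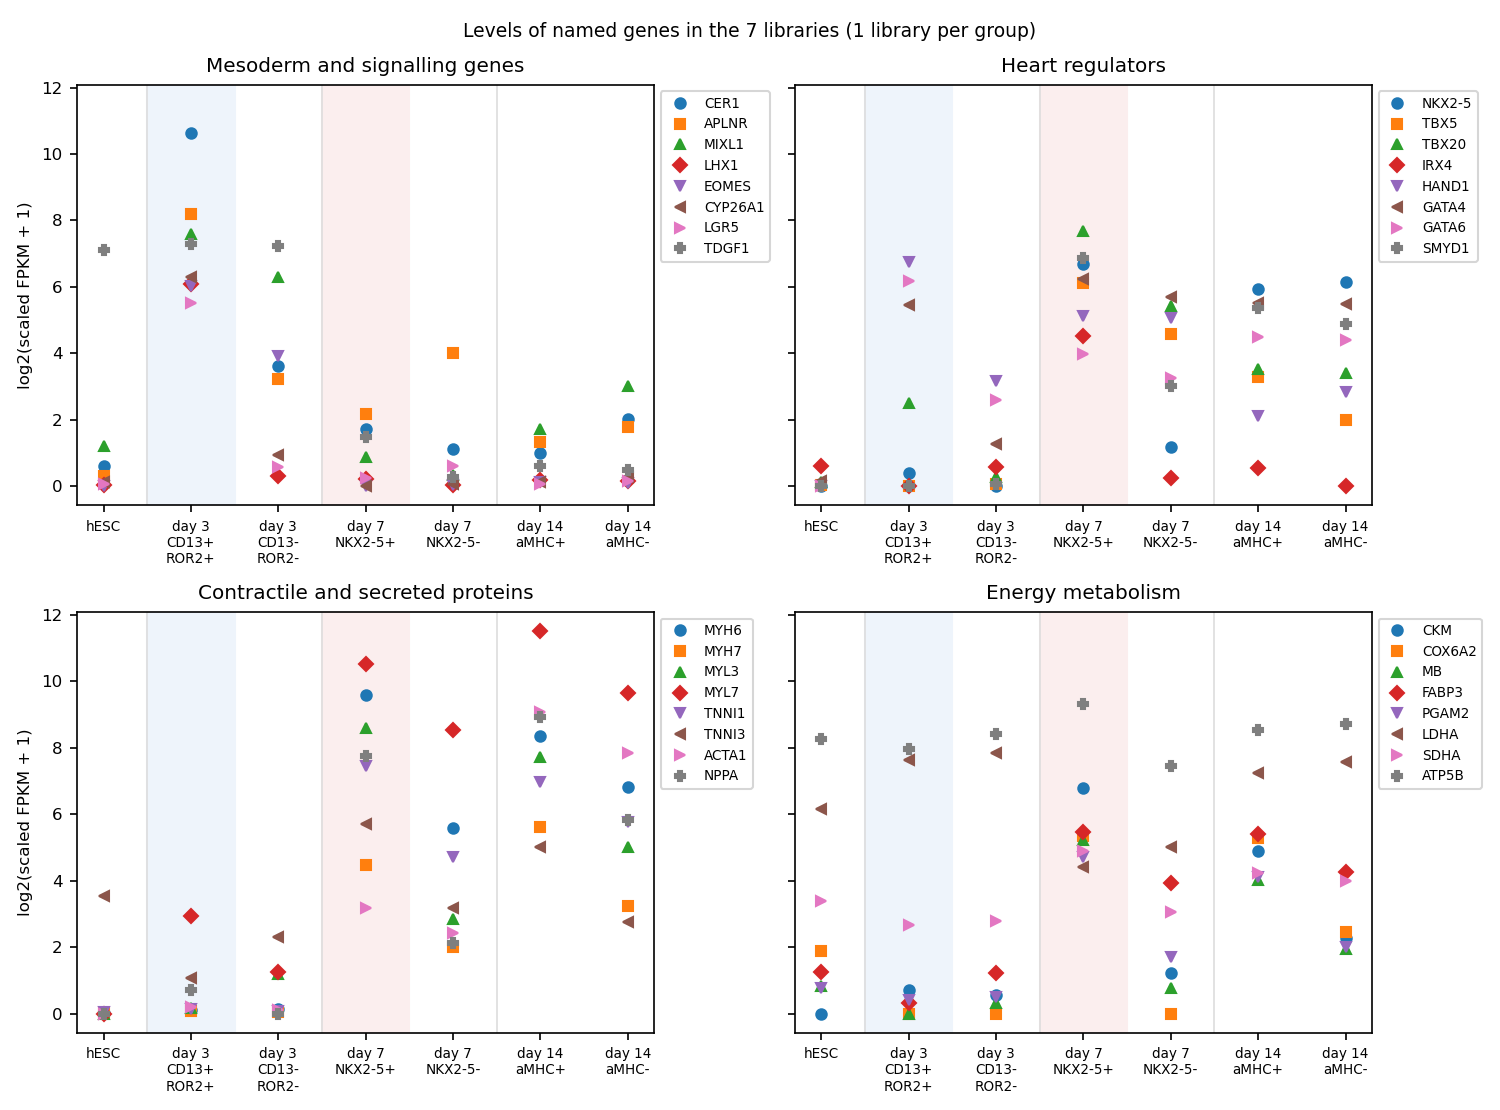
Levels of 32 named genes as log2 of (scaled FPKM + 1) in the 7 libraries, 1 library per group, in order of day, with the day 3 CD13+/ROR2+ library on blue and day 7 NKX2-5+ on red. Mesoderm genes are highest on day 3 in the blue column, except TDGF1, which is about as high in hESC and day 3 CD13-/ROR2- (136 and 149.9, beside 155 in the blue column), and TBX20, TBX5 and IRX4 are highest in the red column, at 206, 67.9 and 22.1 scaled FPKM.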

How the data were processed

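RNA of sorted cells was sequenced as single reads, per the labels' protocols, after RNeasy extraction and TruSeq RNA v2 library preparation, which does not mark strand, on a HiSeq 2500. The FPKM values were deposited by the authors in 1 table of 7 libraries, computed with Cufflinks on hg19 per the submitters' processing notes. The aligner, versions and annotation were not given in the sources used here. Cufflinks divides reads among transcripts, so near-identical genes can exchange reads, and it can fail to give a value and list a gene at 0. Of 23368 rows, 106 without values and 1683 small RNA and histone symbols were left out, since short transcripts get inflated FPKM. Small RNA and histone symbols held 8.69% of all FPKM in day 7 NKX2-5+ and 13.4% in day 3 CD13+/ROR2+.

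Libraries were scaled by the median ratio to the geometric mean over genes above 1 FPKM in all 7. Log2 ratios used a pseudocount of 1. A gene was counted at a log2 ratio of 2 or more in size with at least 5 scaled FPKM in the higher library, a rule of size and not a test. Lists of genes (42 lists, 629 genes) and the genes named were chosen with earlier results of these data known. Named were the sort and marker genes, list members with those of largest ratio first, the genes of highest and lowest ratio on no list, and the most abundant ones. Relative depth came from low FPKM values, which step by the value of 1 read. The scaling and counting were tested on simulated data. Python 3.11.15, pandas 2.3.3, numpy 2.4.6 and matplotlib 3.10.9 were used. Alternatives changed the pseudocount, the minimum, the scaling, the left-out symbols and the size rule.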

Additional observations from a re-analysis of the deposited data

How the results depend on the processing

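Each library stands alone in its group, so no spread, interval or test exists for any difference, and low levels on day 7 rest on the shallower library. No paired analysis was possible because each group has 1 library, and for the same reason no replicate could be left out. The counts moved by over 1.5 times under 3 alternatives. With a pseudocount of 5 they were 153 higher and 81 lower on day 7, with a 2-fold rule 999 and 817, and without scaling 241 and 454, in place of 393 and 238. They stayed within that range with a pseudocount of 0.1 (499 and 309), no minimum level (458 and 283), an equal sum of FPKM (436 and 277), scaling on the compared libraries alone (365 and 225), small RNA and histone symbols kept (404 and 282), and genes at 0 left out (380 and 197). Medians of lists that lost a size of 1 with a pseudocount of 5 were heart transcription factors at 0.76, definitive endoderm at -0.77, liver genes at 0.88, smooth muscle at 0.84, ion channels at 0.43 and chamber genes at 0.78. Without scaling, heart transcription factors were at 1.00, ion channels at 0.99 and the respiratory chain at 0.46. Medians that gained that size without scaling were NODAL genes at -1.31, glycolysis at -1.01, DNA replication at -1.20, mitosis at -1.44, mesenchymal genes at -1.04, the ribosome at -1.47, housekeeping genes at -1.10 and immediate early genes at -1.21. With a pseudocount of 0.1 they were the label markers at 1.20, endothelium at 1.14, NODAL genes at -1.10, FGF genes at -1.28, fatty acid oxidation at 1.25, epithelial genes at -1.36 and splicing genes at 1.01. HOX genes were at -1.07 with genes at 0 left out, and NODAL genes just gained that size with an equal sum of FPKM. The cause of these shifts was not tested beyond each alternative's own construction.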

Other observations

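Other genes that passed the limit are given here as values, again for day 7 NKX2-5+ and day 3 CD13+/ROR2+. Of the remaining Z-disc genes, SMPX was at 85.5 scaled FPKM on day 7 and 0.0348 on day 3, SORBS2 at 39.8 on day 7 and 0.154 on day 3, SYNPO2L at 38.9 on day 7 and 0.136 on day 3, NEXN at 16.1 on day 7 and 0.466 on day 3, and desmin (DES), the muscle intermediate filament gene, at 15.1 on day 7 and 0.0574 on day 3. LMOD2, which elongates thin filaments, was at 7.04 on day 7 and 0.0238 on day 3. Of the calcium store genes, HRC was at 17.99 on day 7 and 0.196 on day 3 and SRL at 6.01 on day 7 and 0.0358 on day 3, and the calcium channel subunit gene CACNB2 was at 12.7 on day 7 and 0.605 on day 3. Of energy genes not yet named, SLC25A4, the muscle ATP and ADP exchanger of mitochondria, was at 29.8 on day 7 and 2.16 on day 3. COX7A1 was at 10.6 on day 7 and 1.48 on day 3, and the glycogen phosphorylase gene PYGM at 13.4 on day 7 and 0.0675 on day 3. ACSL1 was at 9.67 on day 7 and 0.479 on day 3. TECRL, counted in the same list but not known for energy transfer or oxygen storage, was at 57.7 on day 7 and 0.0226 on day 3. Outside the lists, PPP1R12B, a myosin phosphatase subunit gene, was at 95.6 on day 7 and 1.51 on day 3 (63.3-fold) and SH3BGR at 93.9 on day 7 and 2.27 on day 3 (41.4-fold). ADPRHL1 was at 55.03 on day 7 and 0.449 on day 3, IGFBP7 at 66.4 on day 7 and 0.246 on day 3, FILIP1, whose product binds filamin, at 32.2 on day 7 and 0.0692 on day 3, and PPP1R14C, a phosphatase inhibitor gene, at 35.8 on day 7 and 0.0997 on day 3.

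On the lower side, HHEX was at 0.117 scaled FPKM on day 7 and 6.74 on day 3 and the WNT target gene SP5 at 0 on day 7 and 5.496 on day 3. Pluripotency genes not yet named were DPPA4 at 4.42 on day 7 and 36.1 on day 3, SALL4 at 5.53 on day 7 and 34.4 on day 3, ZFP42 at 0.07402 on day 7 and 7.52 on day 3 and ZIC2 at 0 on day 7 and 11.8 on day 3. The secreted protein genes COCH and OLFM1 were at 0.329 and 0 on day 7 and at 28.7 and 21.02 on day 3. MXRA5, a matrix protein gene, was at 0.975 on day 7 and 40.6 on day 3, LRRN1 at 0.325 on day 7 and 65.3 on day 3, LZTS1 at 0.427 on day 7 and 28.6 on day 3, and GNG8 at 0 on day 7 and 22.9 on day 3.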
